A study of Mus musculus with 9 samples.

Results

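The cytosolic ribosomal protein genes encode the proteins of the large and small subunits of the ribosome that translates nuclear mRNA. The members were taken by symbol: every protein-coding mouse gene named Rpl or Rps with a number and an optional letter or l, with Rplp0, Rplp1 and Rplp2 included and the Rps6k kinases and the named pseudogenes left out. The rule found 80 of the 51912 genes in the deposited tables, of which 50 belong to the large subunit and 30 to the small subunit. Of the 80, 77 had a mean of at least 1 CPM (a count scaled to library size, with TMM factors) and were described further, among 14787 genes that passed that minimum. The other 3 were the tissue-restricted paralogs Rpl10l, Rpl39l and Rpl3l. Genes such as Rpsa, Rps3a1, Fau, Rack1, Rpl22l1 and Rpl7l1 lie outside the symbol rule and are given separately.

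The series profiled RNA of sorted hippocampal pyramidal neurons in 9 libraries of 12136830 to 19151596 counts. All libraries share 1 source: male mice of the strain C57BL/6 with a Camk2a-driven Cre recombinase (CamkⅡα- cre in the labels), a promoter of forebrain excitatory neurons, injected with rAAV5-DIO-mCherry, a serotype 5 adeno-associated vector whose red fluorescent protein is made only where Cre is active. The labels name 2.88e+08, 2.88e+09 and 2.88e+10 vector genomes as doses, the lower serving as control, with collection 3 weeks after injection. Hippocampal slices were dissociated by papain, DAPI marked the dead cells to be discarded, and fluorescent cells were sorted. The age of the mice was not given in the sources used here.

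The labels put no library at a dose. The column names carry the letters H, M and L with the numbers 1 to 3, and the labels do not explain them. The letters are therefore used only as names of 3 sets of 3 libraries. No test was run between the sets, and a gene is called apart between sets only where every library of the one lay above every library of the other. Each such count is read against the share of all genes that did the same. Which animals or pools gave the libraries of a letter was not given for each library, so that the spread within a set may be technical.

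Ribosomal proteins are made in large amounts by every growing cell and assemble with ribosomal RNA in the nucleolus. Their mRNAs begin with a run of pyrimidines (a TOP motif) through which mTORC1 signalling controls their translation as a group. In neurons, ribosomes are placed in dendrites and axons as well as in the cell body, where they serve local protein synthesis. Most of these genes also have many processed pseudogenes, which are intron-less copies elsewhere in the genome.

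The first bases around the start site are shown for 8 members, because the pyrimidine run at that position is the element these genes are known to share. The first 4 (Rpl10, Rpl39, Rps13 and Rps18) were higher in H than in the L or the M libraries, and the last 4 (Rpl38, Rpl31, Rps7 and Rps6) were lower. Each line gives 15 bases before and 15 from the RefSeq start on build GRCm38.p6, 5′ to 3′ on the gene's own strand, and capitals mark each run of at least 7 C or T that reaches within 10 bases of the start, which may go on beyond the bases shown.
Rpl10 (chrX:74270801-74270830, plus strand): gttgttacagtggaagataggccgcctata
Rpl39 (chrX:37085208-37085237, minus strand): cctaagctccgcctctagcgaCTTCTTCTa
Rps13 (chr7:116334176-116334205, minus strand): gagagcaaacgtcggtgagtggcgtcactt
Rps18 (chr17:33955651-33955680, minus strand): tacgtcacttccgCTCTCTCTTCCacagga
Rpl38 (chr11:114668565-114668594, plus strand): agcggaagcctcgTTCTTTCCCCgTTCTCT
Rpl31 (chr1:39367836-39367865, plus strand): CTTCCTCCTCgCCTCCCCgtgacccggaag
Rps7 (chr12:28635939-28635968, minus strand): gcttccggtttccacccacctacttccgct
Rps6 (chr4:86857353-86857382, minus strand): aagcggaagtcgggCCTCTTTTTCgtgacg
A run was present in 5 of these 8 windows, on both sides of the division. A RefSeq promoter of 250 bases before to 50 bases after the start was at hand for 60 of the 80 members and for 27025 genes in all. The pyrimidine run, searched on the sense strand, was found in 33 of the 60 members (55.0%) and in 22.5% of all promoters. CCGGAAG, a core bound by ETS family factors, was found on either strand in 24 members (40.0%) and in 9.93% of all promoters. CTTTCC, searched likewise and free to overlap the pyrimidine run, was found in 32 members (53.3%) and 29.3% of all. ATGGCGGC, a core of the YY1 motif, was found in 4 members (6.67%) and 2.6% of all. Of the members that were apart between H and another set, 9 higher in H and 8 lower in H had a promoter, and the pyrimidine run was found in 6 and 5 of them. CCGGAAG was found in 4 of the 9 and 6 of the 8. A match is only a match of letters in that window.

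Levels between genes were compared on the deposited FPKM scale, which divides by gene length. Over the 77 members the median FPKM of the 9 libraries ran from 1.04 for Rps13 to 234 for Rplp1, with a median of 27.5. It was under 10 for 24 members and over 100 for 9. Among the highest were Rplp1, an acidic protein of the stalk that recruits elongation factors (234), and Rpl4, which lines the peptide exit tunnel (169). Others were Rps15 at an FPKM of 162, Rps14 at 155, Rpl8 at 127 and Rpl19 at 115.5. Members whose proteins assemble into the same particle thus differed widely in FPKM. The length that FPKM divides by, inferred from count and FPKM, differed as well, at 4483 bases for Rps3 and 499 for Rplp1. For Rps3 it exceeded the longest annotated transcript, of 3183 bases. Rps3 had a mean of 291.5 CPM and a median FPKM of 62.75, against 135.5 CPM and 234 for Rplp1. The order of members in FPKM therefore depends on that length. Nearly all members share sequence with other genes: 77 of the 80 had at least 1 window of 50 bases in their transcripts that also occurs in another gene's transcripts, and 76 shared one with a pseudogene. The share of windows was 20.4% in the median and reached 81.1% in Rpl36. Across the 77 members, Spearman's rho of median FPKM against that share was 0.046, a description over genes that share the same libraries. Windows were pooled over all annotated transcripts of a gene, so that long transcripts lower the share, as in Rpl21 with 514 of 3442 windows shared. Neither the share nor this rho therefore tells how many reads of a member were ambiguous. The sources used here do not say how reads matching several genes were counted, and each member's level is uncertain to that extent.

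The paralogs with restricted expression were at or near 0. Rpl10l, a retrogene of Rpl10 used in the testis, had 0 counts in all 9 libraries, where a count of 0 allows up to 0.158 to 0.246 CPM. Rpl39l, a paralog of Rpl39 best known from the testis, ran from 0 to 0.915 CPM, and Rpl3l, the striated muscle paralog of Rpl3, from 0 to 0.731 CPM. Rpl36al, the autosomal copy of X-linked Rpl36a, was the more abundant of that pair, with a median FPKM of 48.3 against 9.27. Rps27l, a p53-inducible paralog of Rps27, had a median FPKM of 57.4 against 6.42 for Rps27.

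All members together took between 0.396% and 0.627% of all counts. The share was 0.562%, 0.469% and 0.500% in H1, H2 and H3. It was 0.627%, 0.547% and 0.484% in M1, M2 and M3. In L1, L2 and L3 it was 0.396%, 0.414% and 0.551%. The 95% Wilson interval, which covers counting error only, was 0.3932% to 0.3995% for L1 and 0.547% to 0.555% for L3. In summed CPM the libraries ran from 4099 in L1 to 6318 in M1, a ratio of 1.54. M1, L3 and H1 were the 3 highest libraries and each came from a different letter, while L1 and L2 were the lowest.

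**Figure D1:**
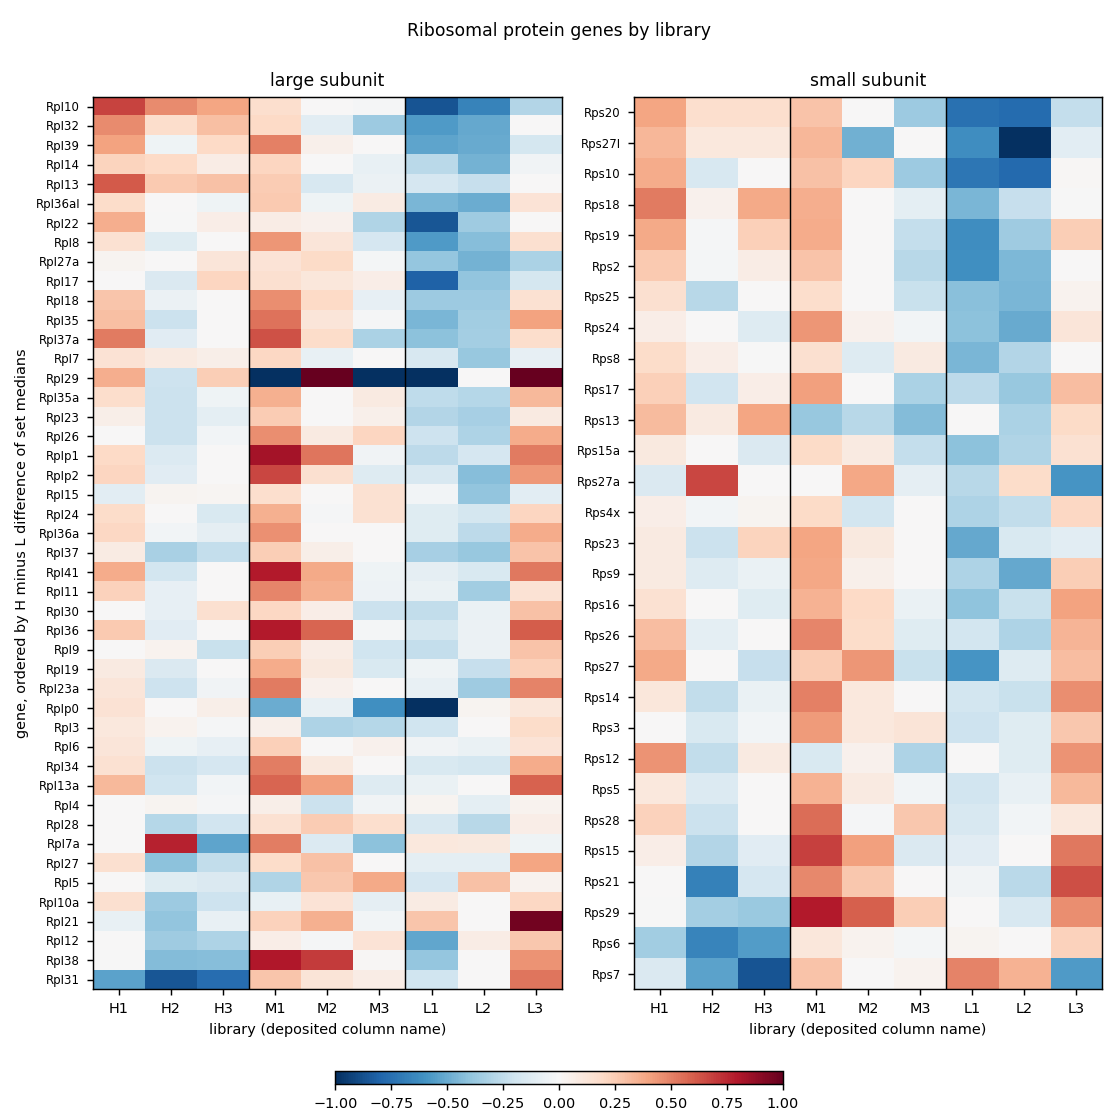
Each row is 1 ribosomal protein gene with a mean of at least 1 CPM (genes not reported by name are left out), each column 1 library, and the colour is log2(CPM + 1) minus the gene's median over the 9 libraries. The columns M1 and L3 are red and L1 and L2 blue in most rows, so that columns of 1 letter differ.

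A score per library, the mean over members of log2(CPM + 1) centred on each gene's median, gave the same picture. It was 0.17, -0.10 and -0.04 in H1, H2 and H3, and 0.28, 0.13 and -0.10 in M1, M2 and M3. In L1, L2 and L3 it was -0.31, -0.25 and 0.21. The range within a set was 0.27 in H, 0.38 in M and 0.52 in L, and the sets overlapped. The differences between set medians were 0.21 for H minus L, -0.17 for H minus M and 0.38 for M minus L, of which none exceeded the range within L. Without L1 the score difference of H minus L turned to -0.04, without L2 it was 0.01, and without L1 that of M minus L was 0.16. Without M1 the difference of H minus M was -0.05, and without M3 it was -0.28. With the median of members in place of the mean as score, H minus M was -0.07. Single libraries stood out gene by gene as well: M1 was the highest of the 9 in 39 of 77 members (50.6%, against 10.2% of all genes), L3 in 15 (19.5%, against 15.4%) and H1 in 13 (16.9%, against 7.36%). L1 was the lowest library in 26 members (33.8%, against 13.0% of all genes) and L2 in 26 (33.8%, against 9.46%). In 60 of the 77 (77.9%) the largest range within a letter exceeded the range of the 3 set medians, against 58.5% of all genes.

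Gene length moved with this order in part. The median of 329 other genes with an inferred length under 1000 bases was 0.36 in M1 and 0.23 in L3 on the centred log2 scale. In H1, H2 and H3 that median was 0.00, -0.19 and -0.10, in M2 and M3 it was 0.03 and 0.06, and in L1 and L2 it was -0.07 and -0.09. The median of 5306 genes of 4000 bases or more stayed between -0.02 and 0.07. M1 and L3 were thus the highest for short genes as for the members, while H1 was high for the members and not for the short genes. The part of transcript length in the member values was not tested.

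Few members were apart between the sets. H lay above L in 12 of 77 (15.6%), where 24.7% of all genes did, and below L in 3 (3.9%), against 26.2% of all genes. H lay above M in 4 (5.19%), against 23.0%, and below M in 10 (13.0%), against 21.3%. M lay above L in 8 (10.4%), against 17.0%, and below L in 0, against 15.5%. With all libraries and this minimum the 6 shares were under those of all genes, and 51 of the 77 members overlapped in every pair of sets. That order depended on the minimum and on single libraries. With no minimum mean, which adds many genes near 0 to the background, H lay above L in 15.0% of the 80 members against 11.8% of all genes, H below M in 12.5% against 7.12%, and M above L in 10.0% against 7.5%. The median difference over members was 0.17 for H minus L, -0.12 for H minus M and 0.32 for M minus L on the log2(CPM + 1) scale, against -0.04, 0.00 and 0.00 over all genes. These 3 comparisons share libraries and are not independent of each other.

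L3 decided the counts against L. Without L3, all 3 H libraries lay above L1 and L2 in 37 of 77 members (48.1%), against 28.0% of all genes. Without L3, all 3 M libraries lay above L1 and L2 in 56 of 77 (72.7%), against 24.4% of all genes. A set of 2 libraries is also easier to clear than a set of 3, which the share of all genes takes into account. That share does not account for L3 having the highest score of the L libraries over these same members. Without L1, H lay above L in 10 (13.0%, against 30.1% of all genes) and M in 7 (9.09%, against 22.0%). Without L2, H lay above L in 13 (16.9%, against 30.1%) and M in 9 (11.7%, against 22.4%). Single libraries other than L3 also moved some counts by over 1.5 times. H below M was 22 without H1 (28.6%, against 24.3% of all genes) and 28 without M3 (36.4%, against 32.2%), and M above L was 18 without M3 (23.4%, against 21.4%), so that these 3 shares also lay above those of all genes. H above M was 13 without M1 (16.9%, against 26.9%) and 8 without H2 (10.4%, against 25.1%). H below L was 8 without H1 (10.4%, against 29.3%), 5 without L1 (6.49%, against 32.5%) and 5 without L2 (6.49%, against 31.3%). M below L was 4 without M2 (5.19%, against 20.4%), 2 without M1 (2.6%, against 19.3%) and 1 without any single L library (1.3%, against at most 20.5%).

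Counts of the pseudogenes named after a member also bear on which members were apart. With these pseudogenes added to each member, H lay above L in 13 members (16.9%), 11 of them among the 12 above, and below L in 1 (1.3%). H then lay above M in 2 (2.6%) and below M in 7 (9.09%), and M above L in 7 (9.09%). The shares of all genes, on their own counts, were 24.7%, 26.2%, 23.0%, 21.3% and 17.0% in that order. The members that then overlapped were Rps6 and Rpl21 (H below L), Rpl17 (H and M above L), Rpl13 and Rps13 (H above M), and Rpl21, Rpl28 and Rpl38 (H below M). Rps2 and Rps23 had H above L only with the pseudogenes added. The sets of Rpl10 and Rpl31 that were apart stayed apart. The members named in the next paragraphs were apart on their own counts.

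**Figure D2:**
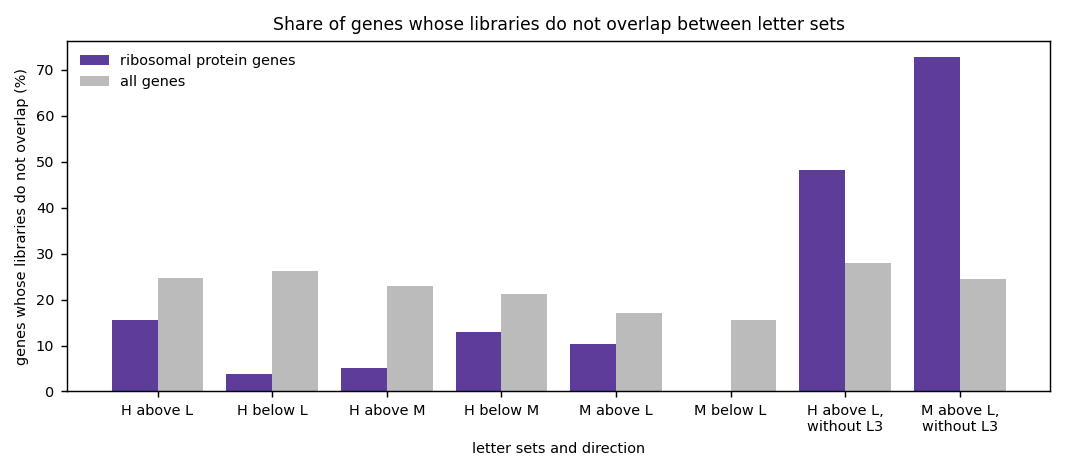
Bars give the percent of the 77 ribosomal protein genes (purple) and of all genes (grey) whose libraries did not overlap between 2 letter sets, for each direction. With all libraries every purple bar is the shorter of its pair, and without L3 the purple bars reach 48.1% and 72.7% against 28.0% and 24.4%. L3 is the L library with the highest member score, and the shares without L1 or without L2 are not drawn.

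Among large subunit proteins, Rpl10 had the largest difference of H over L. Rpl10, which joins the subunit last and is needed for subunit joining, lies at chrX:74270812-74273135 (mm10). It measured 22.4, 19.4 and 18.2 CPM in H1, H2 and H3, 15.5, 13.7 and 13.5 in M1, M2 and M3, and 7.07, 8.22 and 11.0 CPM in L1, L2 and L3. It was the only member whose 3 sets were all apart, in the order H, M, L, with a difference of 1.142 for H minus L, 0.47 for H minus M and 0.67 for M minus L. Rpl13 was also above both other sets in H, at 25.0, 19.4 and 19.9 CPM against 14.2 to 19.3 in M and 13.5 to 16.0 in L. The lowest H and the highest M library of Rpl13 were nearly equal, and with its named pseudogenes added H and M overlapped.

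Members with H above L also included Rpl7, Rpl14, Rpl17, Rpl27a, Rpl32, Rpl39, Rps18, Rps20 and Rps27l. Rpl32 gave 102.5, 83.4 and 91.1 CPM in H, 84.8, 68.3 and 57.3 in M, and 49.6, 51.4 and 73.8 in L, a difference of 0.81. In Rpl32, M1 lay within the H range and L3 was the highest L library. Rps20, a protein of the small subunit head, was at 49.3, 42.0 and 41.9 CPM in H, 45.5, 37.2 and 28.8 in M, and 21.8, 21.4 and 31.4 in L, which differed by 0.92 for H minus L and overlapped between H and M. Rpl39, a short protein of the exit tunnel, was at 26.5, 19.2 and 22.9 CPM in H, 28.5, 20.6 and 19.8 in M, and 13.5, 13.7 and 17.4 in L. Both H and M lay above L in Rpl39, as they did in Rpl7, Rpl10, Rpl17 and Rpl27a. M alone lay above L in Rpl15, Rpl28 and Rps23.

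The members lower in H than in both other sets were Rpl31, Rps6 and Rpl21. Rpl31, a protein at the rim of the exit tunnel, at chr1:39367842-39371911, measured 20.3, 16.1 and 17.2 CPM in H, 36.6, 32.9 and 31.7 in M, and 26.0, 30.0 and 43.8 in L. Its differences were -0.76 for H minus L and -0.89 for H minus M, and M and L overlapped. Rps6, the small subunit protein phosphorylated by S6 kinase and widely used as a readout of mTORC1 activity, lies at chr4:86854660-86857412. It measured 20.5, 16.3 and 17.5 CPM in H, 28.6, 27.0 and 26.0 in M, and 26.8, 26.3 and 31.1 in L, a difference of -0.58 for H minus L and -0.60 for H minus M. Its 3 H libraries were the lowest, and its M and L libraries were near each other. Rpl21 measured 22.0, 17.4 and 22.0 CPM in H, 27.4, 29.9 and 22.7 in M, and 28.4, 23.2 and 46.3 in L, where L3 stood far above the rest. Rps6 shared 43.8% of its windows with other genes, all 14 of them pseudogenes. The 4 pseudogenes named after Rps6 summed to 26.9 to 44.6 CPM, against 16.3 to 31.1 CPM for the gene. Gene and pseudogenes together were at 59.7, 52.5 and 56.7 CPM in H, 73.2, 60.3 and 66.4 in M, and 53.7, 59.4 and 70.6 in L, so that H stayed below M and overlapped L. The 15 pseudogenes of Rpl21 summed to 27.1 to 51.2 CPM, and with them Rpl21 overlapped in every pair.

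Between H and M, Rpl38 had the largest negative difference among members that were apart. Rpl38, known for a patterning defect in mice that lack a copy, measured 16.1, 11.8 and 11.8 CPM in H, 28.9, 26.9 and 16.3 in M, and 12.2, 16.2 and 22.5 in L, a difference of -1.12 for H minus M. H1 and M3 were close, at 16.1 and 16.3 CPM, and with its 2 named pseudogenes added Rpl38 overlapped between H and M. Rps29 was at 5.90, 4.46 and 4.35 CPM in H and 11.0, 9.45 and 7.20 in M. Rps3, Rps7, Rps21, Rpl26 and Rpl28 were the others with H below M. Rps7, a small subunit protein, measured 13.7, 10.2 and 7.93 CPM in H, 18.8, 15.2 and 15.6 in M, and 21.9, 19.7 and 9.98 in L, where L3 lay within the H range. The members with H above M were Rpl10, Rpl13, Rps13 and Rplp0. Rps13 was low everywhere, at 3.85, 3.15 and 4.12 CPM in H, 2.00, 2.21 and 1.89 in M, and 2.89, 2.13 and 3.45 in L. Its 7 named pseudogenes summed to 9.56 to 13.2 CPM, and with them H and M overlapped.

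**Figure D3:**
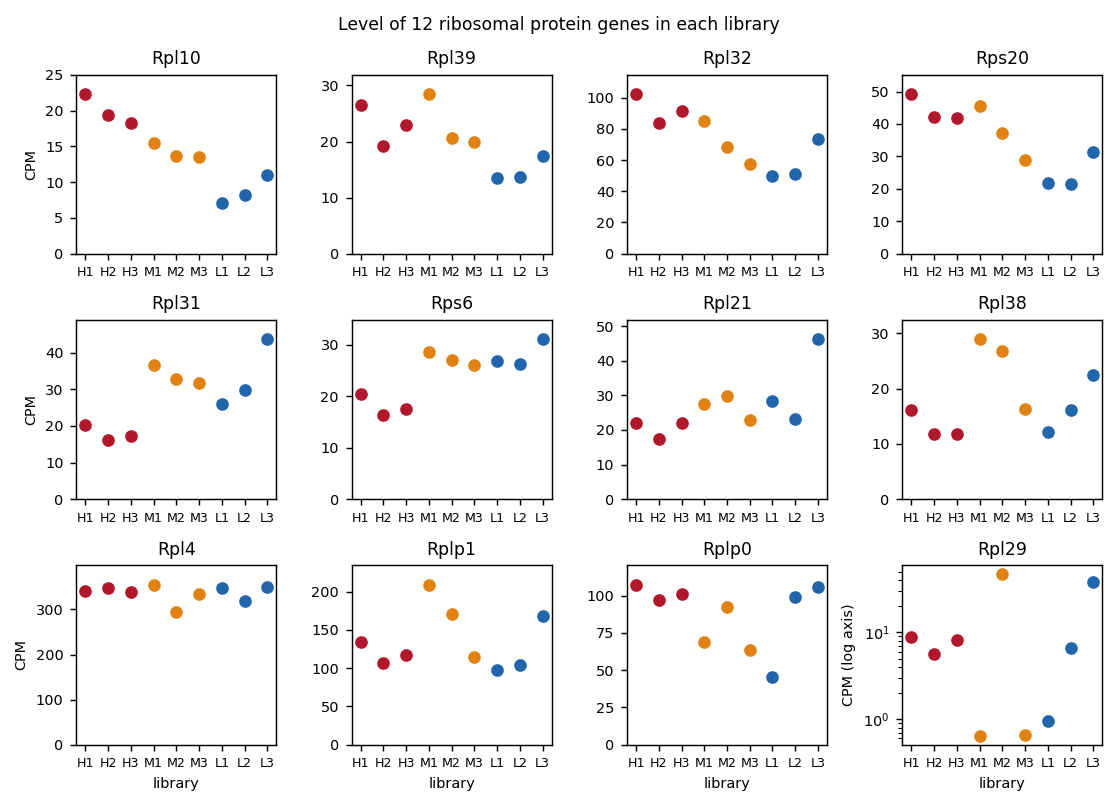
Each panel gives the CPM of 1 gene in each of the 9 libraries, coloured by letter, on an axis from 0 except for Rpl29, which has a log axis. The H libraries of Rpl10 lie above all others and those of Rpl31 and Rps6 below, Rpl4 is nearly level, and Rpl29 is under 1 CPM in M1, M3 and L1.

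The P stalk, the flexible arm of the large subunit that binds elongation factors, is built of Rplp0 with Rplp1 and Rplp2. Rplp1 measured 134, 106 and 117 CPM in H, 209, 170 and 114 in M, and 97.4, 104 and 168 in L. Rplp2 measured 92.0, 73.3 and 79.3 CPM in H, 126.5, 88.9 and 72.3 in M, and 71.1, 58.7 and 108 in L. Both were highest in M1, and their sets overlapped. Rplp0 measured 107, 97.2 and 101 CPM in H, 68.6, 92.1 and 63.3 in M, and 45.3, 98.9 and 105.5 in L. Rplp0 was low in M1, M3 and L1, and the other 6 libraries lay between 92.1 and 107 CPM. Rplp0 therefore did not follow its partners across libraries.

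Rpl29 had the widest spread of any member. Rpl29, a large subunit protein at chr9:106429454-106431568, measured 8.85, 5.61 and 8.08 CPM in H, 0.632, 47.9 and 0.654 in M, and 0.942, 6.64 and 37.8 in L. The 3 libraries under 1 CPM were M1, M3 and L1, which are also the 3 lowest for Rplp0, and the H libraries were near each other. The second highest library exceeded the second lowest 23.5-fold on the CPM + 1 scale, which understates the ratio of such low values. Rpl29 shared 35.1% of its windows with 82 other genes, 66 of them pseudogenes. The 3 pseudogenes named after Rpl29 summed to at most 0.965 CPM in any library.

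Fewer members than genes at large had a wide spread. The spread, taken as the second highest over the second lowest library on the CPM + 1 scale, reached 2-fold in 6 of 77 members (7.79%), against 26.4% of all genes, and its median was 1.496-fold for members and 1.584-fold for all genes. The 6 were Rpl29, Rpl10 (2.21-fold), Rpl38 (2.18-fold), Rpl31 (2.06-fold), Rps20 (2.04-fold) and Rps10 (2.03-fold). With a pseudocount of 5 CPM 1 member passed (1.3%, against 13.2% of all genes), and with the full range 25 did (32.5%, against 52.6%). The steadiest were Rpl4 (1.10-fold), Rpl6 (1.15-fold) and Rpl15 (1.20-fold), among members with a mean of at least 10 CPM. Rpl4 measured 341.5, 348 and 339.5 CPM in H, 355, 293.5 and 333 in M, and 349, 318.5 and 350.5 in L, with no set apart. A few genes were high in 1 library alone, such as Rpl7a at 16.8 CPM in H2 against 6.25 to 13.8 in the others and Rps27a, a ubiquitin fusion gene, at 10.4 CPM in H2 against 3.76 to 8.34. These 2 genes were chosen after their values were seen.

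Some members fixed in the list of named genes overlapped in every pair of sets, as 51 of the 77 did. Rpl5 and Rpl11 form a particle with 5S RNA that binds Mdm2. Rpl5 measured 8.195, 7.45 and 7.32 CPM in H, 6.47, 10.1 and 11.0 in M, and 7.20, 10.3 and 8.44 in L. Rpl11 measured 39.4, 31.5 and 33.5 CPM in H, 47.5, 43.1 and 32.3 in M, and 31.9, 26.1 and 37.1 in L. The pair did not share an order of libraries, M1 being the lowest for Rpl5 and the highest for Rpl11. Rps19 and Rps26, both mutated in Diamond-Blackfan anaemia, ran from 58.4 CPM in L1 to 118 in H1 and from 34.2 in L2 to 60.0 in M1. Rps25 and Rpl10a, both studied as proteins of specialised ribosomes, ran from 114 CPM in L2 to 177 in M1 and from 11.1 in H2 to 16.9 in L3. Rpl22, which binds RNA hairpins and controls its own paralog Rpl22l1, ran from 13.8 CPM in L1 to 33.4 in H1, and Rpl22l1 from 73.5 in L2 to 121 in M1. None of Rps19, Rps26, Rps25, Rpl10a, Rpl22, Rpl5 and Rpl11 was apart in any pair of sets.

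Of the 47 large subunit members, H lay above L in 9 (19.1%, against 24.7% of all genes) and below in 2 (4.26%, against 26.2%). M lay above L in 7 of them (14.9%, against 17.0%). Of the 30 small subunit members, H lay above L in 3 (10.0%) and below in 1 (3.33%), and M above L in 1 (3.33%). H lay below M in 5 members of each subunit (10.6% and 16.7%, against 21.3% of all genes). All these shares were under those of all genes. The difference between the subunits was not tested. The median difference of H minus L was 0.10 for the large and 0.26 for the small subunit, and that of M minus L 0.32 and 0.36. Of the 7 genes outside the symbol rule, 1 had H above L (14.3%, against 24.7% of all genes) and 2 had H below M (28.6%, against 21.3%). Fau, a ubiquitin-like fusion that yields a small subunit protein, measured 14.6, 10.4 and 12.8 CPM in H, 22.7, 21.4 and 15.5 in M, and 13.1, 15.9 and 24.4 in L. Rack1, the scaffold on the small subunit head, had a difference of 0.15 for H minus L and overlapped in all 3 pairs. The pseudogenes named after ribosomal proteins, of which 50 of 279 passed 1 CPM, had H above L in 12 (24.0%, near the 24.7% of all genes) and below in 0, with a median of 0.28. Their library scores followed those of the members in part, with M1 highest and L1 and L2 lowest, but with H1 above L3.

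The counts of other genes of the pathway stand beside 24.7% of all genes with H above L and 26.2% with H below L, and no difference between lists was tested. Of 28 genes of ribosomal RNA transcription and processing, 1 had H above L (3.57%) and 11 had H below L (39.3%), with a median of -0.18. Gar1, a box H/ACA ribonucleoprotein subunit, measured 11.1, 9.37 and 11.7 CPM in H, 12.8, 14.1 and 13.8 in M, and 26.0, 19.7 and 27.8 in L. Of 26 ribosome assembly and export genes, 2 had H above L (7.69%) and 14 below (53.8%), with a median of -0.31. Rrp1, a nucleolar processing factor, was at 479 to 495 CPM in H, 437 to 577 in M and 679.5 to 744 in L. L was thus the highest set for Gar1 and Rrp1, whereas L1 and L2 were the lowest libraries for the members. Translation initiation factors gave 5 above (15.6%) and 10 below (31.2%) of 32. Elongation and release factors gave 4 above and 4 below of 16 (25.0% each), near the shares of all genes. Pabpc1, the poly(A)-binding protein whose own mRNA carries a TOP motif, measured 89.5, 90.1 and 98.7 CPM in H, 65.2, 56.5 and 65.9 in M, and 27.7, 29.1 and 44.0 in L. Its sets were all apart in the same order as in Rpl10. Eef1a2, the elongation factor form of neurons and muscle, was at 20.1 to 21.7 CPM in H, 8.14 to 11.5 in M and 5.18 to 10.1 in L. Of 21 TOP mRNA and mTORC1 regulators, 6 had H above L (28.6%) and 5 below (23.8%), also near those shares. Eif4ebp1, a translation repressor released by mTORC1, was at 11.8 to 13.6 CPM in H, 10.7 to 21.9 in M and 0.493 to 3.78 in L. Of 13 ribosome quality control genes, 2 had H above L (15.4%) and 0 below.

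Genes of the mitochondrial ribosome and of oxidative phosphorylation were mostly lower in H. Of 78 mitochondrial ribosomal protein genes, 54 had H below L (69.2%, against 26.2% of all genes) and 0 above, and 55 had H below M (70.5%, against 21.3%) and 0 above, with medians of -0.33 and -0.38. Mrpl14 measured 37.5, 26.7 and 30.2 CPM in H, 67.0, 57.0 and 47.0 in M, and 37.9, 44.6 and 66.8 in L. Of 72 nuclear oxidative phosphorylation genes, 38 had H below L (52.8%) and 0 above, and 59 had H below M (81.9%) and 1 above. In these lists M1 and L3 were again the highest libraries, as they were among the cytosolic genes and the short genes. Their difference from the cytosolic genes was not tested.

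**Figure D4:**
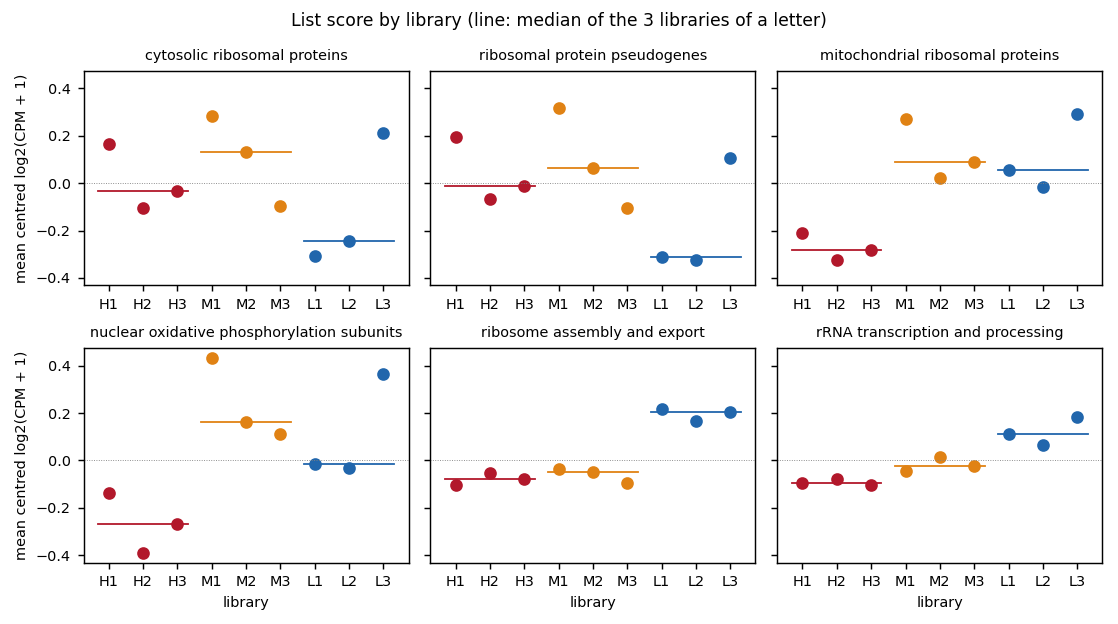
Each point is 1 library's list score, the mean of log2(CPM + 1) centred on each gene's median, coloured by letter, with a line at the median of each set. M1 and L3 are high in the 2 ribosomal protein and the oxidative phosphorylation panels, and M1 and H1 are highest in the pseudogene panel. The H points are lowest in the mitochondrial panels, and the L points are highest in the ribosome assembly panel.

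Markers of several other cell types, though not of all, differed between the letters. All 13 microglial markers had H above L and above M, as 24.7% and 23.0% of all genes did. The sum of these markers was 17380 to 18820 CPM in H, 5026 to 6375 in M and 27.7 to 153 in L. All 10 oligodendrocyte markers had H above both, with sums of 630 to 652, 95.9 to 160 and 32.0 to 60.9 CPM. Of 9 plasma and B cell markers, 8 had H above both, with sums of 4843 to 5027, 277 to 429 and 257 to 403 CPM. Pyramidal neuron markers summed to 4085 to 4588 CPM in H, 2282 to 2795 in M and 4996 to 7259 in L. The labelled cell type's markers were thus present throughout, and they also differed between the letters. Of the 10, 5 had H below L (50.0%, against 26.2% of all genes) and 7 had H above M (70.0%, against 23.0%). M lay below L in 5 of them (50.0%, against 15.5%). Inhibitory neuron markers summed to 276 to 323, 669 to 1491 and 474 to 1808 CPM. Of these 8 markers, 5 had H below L (62.5%, against 26.2% of all genes) and 6 had H below M (75.0%, against 21.3%). Of 4 endothelial markers, 0 reached a mean of 1 CPM. H lay above L in 3 of 9 astrocyte markers (33.3%) and in 3 of the 4 T cell markers that passed 1 CPM (75.0%). It did so in 0 of 6 dentate granule neuron markers, and in 24.7% of all genes. Against M, 2 astrocyte markers had H above (22.2%, against 23.0% of all genes) and 4 had H below (44.4%, against 21.3%). Cd3g, a T cell receptor chain, was at 5.82 to 6.86 CPM in H and at 0 in L. Microglial sums separated the 3 letters completely, whereas the summed level of the ribosomal protein genes did not. In these bulk libraries fewer cells of a type and less RNA per cell cannot be told apart, and the part of the other cell types in the values of Rpl10, Rpl31, Rps6 or any other member was not tested.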

How the data were processed

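For 51912 Ensembl genes, each of the 9 deposited tables holds a raw count and an FPKM, per the file headers. Tools in the submitters' processing notes are HTSeq 0.6.1, HISAT2 2.0.1, Trimmomatic 0.30 and bcl2fastq 2.17.1.14, with build mm10. The sources used here give no roles, parameters, strand setting or annotation release. Totals were 12136830 to 19151596 counts, at which a count of 0 allows 0.158 to 0.246 CPM.

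CPM used TMM factors (edgeR 4.0.16, R 4.3.3), and genes averaging 1 CPM or more were described as log2(CPM + 1). Fold changes on this scale understate those of low genes. Symbols came from GENCODE M21, which held 99.46% of the identifiers, and promoters from RefSeq. Python 3.11.15 with numpy 2.4.6, pandas 2.3.3, scipy 1.17.1 and matplotlib 3.10.9 was used. The deposited FPKM values served to compare genes and to infer gene length from the ratio of count to FPKM.

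The labels give 0 of 9 libraries a group, so sets of equal letter were described by medians, ranges and non-overlap, with no test and no mean with SD. Between libraries of 1 letter, chi-square per degree of freedom over all genes was at least 2.67, so no library was a copy of another within sampling noise. It was 2.67 to 5.14 within H, 24.26 to 33.58 within M and 27.21 to 38.86 within L. The H libraries were thus much closer to each other than those of M or L, which bears on every count of genes with H apart.

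The members and lists were chosen with earlier results of these data known. Named genes were the 8 of highest and 3 of lowest FPKM, those with a spread of at least 2-fold, the 3 of smallest spread at 10 CPM or more, the 4 largest differences per direction and pair of sets among members apart, a fixed set of paralogs, stalk and specialised proteins, and the most abundant and most variable gene of each list. Genes counted as apart are also named. Some genes are counted and are not reported here by name. The shared windows, sums with named pseudogenes, length sets, counts of highest and lowest library, comparison of ranges within and between sets, and promoter windows were added once values had been seen. The alternatives tried were DESeq2 1.42.0 size factors, total counts, TMM without mitochondrial genes or without members, other minimums and pseudocounts, the median as score, the full range, protein-coding genes as background, and leaving out each library. The calculations were checked on simulated data. Protein sequences were not used here.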

Additional observations from a re-analysis of the deposited data

How the results depend on the processing

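Total-count scaling, DESeq2 size factors and TMM without mitochondrial genes kept the direction of every score difference and moved no count of members apart by over 1.5 times. The score H minus L ranged from 0.20 to 0.27 under them. With the median as score, H minus M was -0.067 in place of -0.165. The spread count of 6 (7.79%, against 26.4% of all genes) became 1 with a pseudocount of 5 CPM and 25 with the full range. With no minimum it was 7.5% of members against 8.58% of all genes. Leaving out 1 library gave H above L in 10 to 37 members, H below L in 3 to 8, H above M in 3 to 13, H below M in 10 to 28, M above L in 7 to 56, M below L in 0 to 4 and the spread in 2 to 6. The members' share exceeded that of all genes in 5 of these cases, namely H above L and M above L without L3, H below M without H1 or without M3, and M above L without M3. Leaving out 1 library moved the score H minus L to -0.041 to 0.312 and M minus L to 0.158 to 0.493, and -0.041, without L1, was the only reversal among these score differences. With no minimum, H above L, H below M and M above L were also above the shares of all genes, at 15.0%, 12.5% and 10.0% against 11.8%, 7.12% and 7.5%. H below L, H above M and M below L were not, at 3.75%, 5.0% and 0.0% against 7.86%, 9.3% and 4.71%. Among 14 members under 10% shared windows, H was above L in 2 (14.3%) and below in 0, and above M in 0 and below in 1 (7.14%). M was above L in 1 of them (7.14%) and below in 0. The shares of all genes were 24.7%, 26.2%, 23.0%, 21.3%, 17.0% and 15.5% in that order. The counts of these 14 members are smaller because fewer genes were tested, and their scores were 0.33, -0.06 and 0.39. With named pseudogenes added to each member, H was below L in 1 (1.3%, against 26.2% of all genes) and above M in 2 (2.6%, against 23.0%). Both of these alternatives were chosen after seeing the data. The 24 differences of named genes gave 360 values in all under the alternatives. Of these 360 values, 0 were reversed, 12 were counted as moved and 348 as the same. Each of these 12 changes stayed under the gene's largest range within a set. No paired analysis was possible because the labels give the libraries no groups or replicate numbers and no test was run. The depth limits members under 1 CPM, for which a difference was not detectable.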
